A study of Mus musculus with 2 samples.

Results

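The caveolar coat was followed through 7 genes, *Cav1*, *Cav2*, *Cavin1*, *Cavin2*, *Cavin3*, *Ehd2* and *Pacsin2*, out of 24022 genes tested on 2 arrays. A probe was assigned to a member through the RefSeq accession that the array lists for it, with *Ptrf*, *Sdpr* and *Prkcdbp* taken as the older names of *Cavin1*, *Cavin2* and *Cavin3*. All 7 members were found, with 9 probes, and for each member a probe stood well above the local background on both arrays, in the control or the depleted channel or both. The members were chosen by their place in the caveolar coat with the log2 ratios of these same 2 arrays already in view, among them that of *Cavin2*. Their ratios are therefore given as a description, with no test. The mESCs carried loxP-flanked *AIMP3* alleles and a CreERT2 recombinase that 4-hydroxytamoxifen (4-OHT) activates, and were derived from mouse blastocysts; the genotype, AIMP3f/f;cre-ERT2, was shared by control and depleted cells. AIMP3-depleted cells had received 2 μM 4-OHT for 4 days in medium with LIF (n = 2), and control cells ethanol, so that 4-OHT and active Cre went together with the loss of AIMP3. RNA of each AIMP3-depleted culture was labelled with Cy5 and hybridized against 1 Cy3-labelled pool made from 2 control cultures, so the control was 1 sample and its own spread was not measured. The dyes were not swapped, so a dye effect on a probe and a treatment effect cannot be told apart.

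Caveolae are small flask-shaped pits of the plasma membrane, common in fibroblasts, endothelium, fat and muscle. Caveolins are hairpin-shaped proteins that insert into the inner leaflet of the membrane and oligomerize, and cavins are soluble proteins that form a second coat around them. EHD2 is an ATPase that holds caveolae at the cell surface, and PACSIN2 (syndapin-2) is an F-BAR protein that bends membrane at the pit. When caveolin-1 is missing, caveolae are not formed outside muscle, and every caveola needs cavin-1, whereas cavin-2 and cavin-3 shape the pits and their traffic. Cavins leave the membrane when caveolae flatten under tension.

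The stretches upstream of *Cavin2*, *Cavin1*, *Cav2* and *Cav1* are shown because the first 3 genes had ratios over 1.5-fold and *Cav1* encodes the caveolin that the coat is built on. RefSeq promoter sequences on GRCm38.p6 were matched for 6 of the 7 members, the exception being *Cavin3*. The 250 bases before the first annotated start of each gene are printed 5′ to 3′ on the strand of the gene. They lie at chr1:51288876-51289125 (plus strand), chr11:100970618-100970867 (minus strand), chr6:17280935-17281184 (plus strand) and chr6:17306085-17306334 (plus strand). Capitals mark matches on either strand to CCAAT (the box of NF-Y), GGGCGG (the GC box of Sp1), TATAAA (the TATA box), GGAATG (the core bound by TEAD factors) or TGACTCA (the AP-1 site).
Cavin2: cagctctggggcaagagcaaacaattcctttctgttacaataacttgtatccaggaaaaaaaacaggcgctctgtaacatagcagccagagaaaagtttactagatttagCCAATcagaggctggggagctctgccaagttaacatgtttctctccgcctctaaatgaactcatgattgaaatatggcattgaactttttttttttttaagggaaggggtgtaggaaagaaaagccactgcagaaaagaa
Cavin1: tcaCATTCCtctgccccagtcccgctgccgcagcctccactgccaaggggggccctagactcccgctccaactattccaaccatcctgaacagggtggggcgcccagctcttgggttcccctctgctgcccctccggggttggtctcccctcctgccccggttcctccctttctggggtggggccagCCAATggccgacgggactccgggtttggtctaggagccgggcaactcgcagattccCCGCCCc
Cav2: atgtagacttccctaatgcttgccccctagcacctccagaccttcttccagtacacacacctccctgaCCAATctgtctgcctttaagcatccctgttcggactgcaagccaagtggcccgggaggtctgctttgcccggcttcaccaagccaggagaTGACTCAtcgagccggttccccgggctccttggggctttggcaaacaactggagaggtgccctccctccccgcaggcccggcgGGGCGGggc
Cav1: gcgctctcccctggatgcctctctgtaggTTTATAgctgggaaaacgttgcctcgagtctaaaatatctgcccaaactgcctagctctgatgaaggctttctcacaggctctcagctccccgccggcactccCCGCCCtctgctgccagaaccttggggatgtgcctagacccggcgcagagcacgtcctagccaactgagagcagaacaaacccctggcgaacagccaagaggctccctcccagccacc

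The window of *Cavin2* differed in composition from the other 3. Its GC content was 40.4%, against 67.6% for *Cavin1*, 62% for *Cav2* and 59.6% for *Cav1*, and the median of 32851 RefSeq promoter windows was 52.4%. It held 1 of the motifs searched, a CCAAT starting at position -140, counted from the start site. CCAAT is present in 33.8% of all windows, and it was also found in the windows of *Cavin1* and *Cav2* and not in that of *Cav1*. GGGCGG was found at -9 in *Cav2*, at -7 in *Cavin1* and at -118 in *Cav1*, and is held by 32.7% of all windows. *Cav2* also held TGACTCA, present in 4.46% of windows, and *Cavin1* held GGAATG, present in 12.6%. *Cav1* held TATAAA, present in 12.4%, starting at -221 and on the strand opposite to the gene. Neither the p53 half-site, present in 7.13% of windows, nor the CArG box of serum response factor, present in 1.47%, was found in these 4 windows. *Cav1* has another annotated start, and the window before it, chr6:17307390-17307639, held none of the motifs searched. A match is a description of letters and no evidence of binding. *Cav2* and *Cav1* are neighbours on chromosome 6, with 0 annotated genes starting between them.

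The arrays were checked first by the targeted gene. *Eef1e1*, which encodes AIMP3, had a log2 ratio of -0.90 on each array (SD 0.0067, n = 2; limma, Benjamini-Hochberg adjusted p = 5.08e-05). The median signal over local background lay between 2.68 and 3.31 across the 4 channels, and 0 spots were saturated. Of 11 markers of mESCs, all 11 were well above background in the control channel on both arrays. The threshold was a difference over 1.5-fold together with an unadjusted p under 0.05 by limma. It was passed by 6.32% of all tested genes, 1327 of them raised (5.52%) and 190 lowered (0.791%).

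All 7 caveolar coat genes had a positive log2 ratio, AIMP3-depleted over control, on both arrays. Of all 24022 tested genes, 12653 had a positive mean ratio. Over 1.5-fold were 4 of them, *Cavin2*, *Cavin1*, *Cavin3* and *Cav2*, beside the 6.32% of all tested genes that passed the threshold (5.52% raised), and the other 3 were *Cav1*, *Pacsin2* (1.36-fold) and *Ehd2* (1.20-fold). *Cav1* had only a lower bound, and its log2 ratio was over 1.5-fold with the scanner's processed signals (0.93) and in the authors' values (0.97). The rule used this contrast, so nothing is read from these counts or from the median of the members. With *Cav1* left out because its ratio is a bound, *Cavin2* and *Cavin1* had the highest ratios and *Ehd2* the lowest, under the main processing and the 9 other settings tried. The median log2 ratio of the members was 0.74, with 0.71 on array 1 and 0.77 on array 2, and that of all tested genes was 0.02. In RNA from whole cultures, more cells that express a gene and more RNA per cell cannot be told apart.

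**Figure D1:**
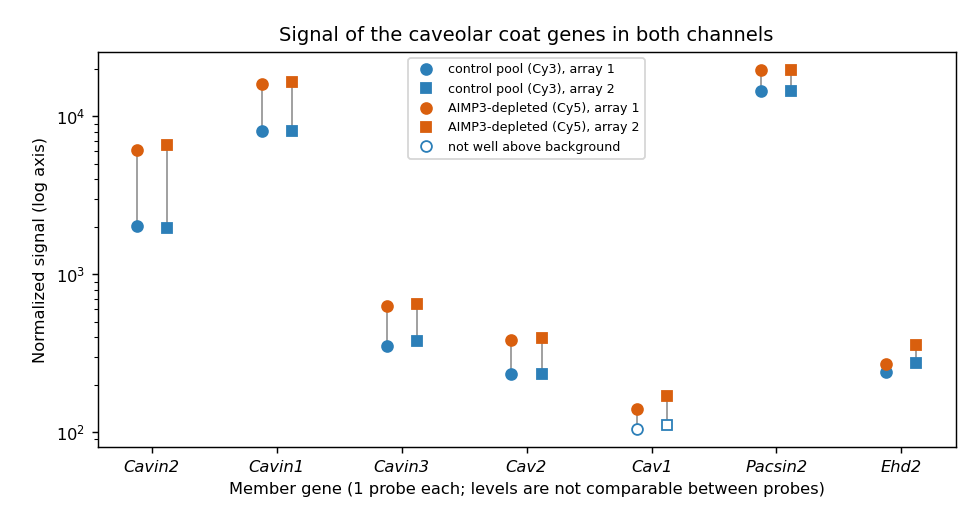
Normalized signal (log axis) of the main probe of each caveolar coat gene in the control pool (Cy3, blue) and in AIMP3-depleted mESCs (Cy5, orange), with circles for array 1, squares for array 2 and a line joining the channels of an array. In all 7 genes the orange symbol lies above the blue one on both arrays, and the open symbols of *Cav1* mark a control signal that was not well above background.

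The cavins form the outer coat. *Cavin2*, which encodes the phosphatidylserine-binding protein also called SDPR, gave normalized signals of 2013 and 1967 in the control pool and 6139 and 6628 in AIMP3-depleted mESCs on arrays 1 and 2. Both depleted values were over 3 times the control values. Its log2 ratio was 1.61 on array 1 and 1.75 on array 2 (mean 1.68 ± 0.10, SD, n = 2), a 3.21-fold difference and the ninth largest ratio of all tested genes. *Cavin1*, which encodes the cavin that every caveola needs, gave 8110 and 8055 in the control pool and 16061 and 16509 in depleted cells. Control and depleted values did not overlap. Its log2 ratio was 0.99 on array 1 and 1.04 on array 2 (SD 0.035, n = 2), a 2.01-fold difference. A dimmer probe of *Cavin1* was not well above background in either channel and was not tested. *Cavin3*, which encodes a protein kinase C delta binding protein, gave 350 and 376 in the control pool and 631 and 648 in depleted cells. The channels did not overlap, and the log2 ratio was 0.85 on array 1 and 0.79 on array 2 (mean 0.82 ± 0.044, SD, n = 2).

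The caveolins form the inner coat, and both were measured close to the background. *Cav2*, which encodes the caveolin that needs caveolin-1 to leave the Golgi, gave 234 and 232 in the control pool and 384 and 396 in depleted cells. Its log2 ratio was 0.71 on array 1 and 0.77 on array 2 (mean 0.74 ± 0.042, SD, n = 2). The main probe of *Cav2* was printed as 10 spots on each array, which shows the error within an array. A single spot of these was flagged as an outlier on both arrays and left out. On array 1 the other 9 spots had log2 ratios from 0.61 to 0.81 with a median of 0.72, and on array 2 from 0.60 to 0.94 with a median of 0.73. The SD among spots was 0.066 on array 1 and 0.13 on array 2, larger than the SD of 0.042 between the means of the arrays. A single spot of this brightness can therefore deviate by more than the arrays differed. The other probe of *Cav2* was well above background only in depleted cells, and was at least 1.37-fold higher there, a bound of the same kind as that given below for *Cav1* (log2 ratios as measured, 0.32 and 0.59).

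*Cav1* was measured by 1 spot, listed under 1 of the transcripts of the gene, NM_001243064. The control signal, 105 on array 1 and 111 on array 2, was not well above background, whereas the depleted signal, 140 and 170, was. *Cav1* passed the filter only through the depleted channel, which alone makes a positive ratio more likely. Its log2 ratio was 0.42 and 0.62 (mean 0.52 ± 0.14, SD, n = 2), and over both arrays depleted cells were at least 1.43-fold higher, with 1.34-fold on array 1 and 1.53-fold on array 2. The words at least refer only to a control level that is bounded from above and leave out the spread between arrays and settings, and without background subtraction the log2 ratio was 0.44. The bound takes the control signal as measured, since it exceeded the lowest control signal among probes well above background (84.9 and 73.4), and it rests on single dyes without a swap. The control level of *Cav1* has only an upper bound, although those of the other 6 members were measured.

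**Figure D2:**
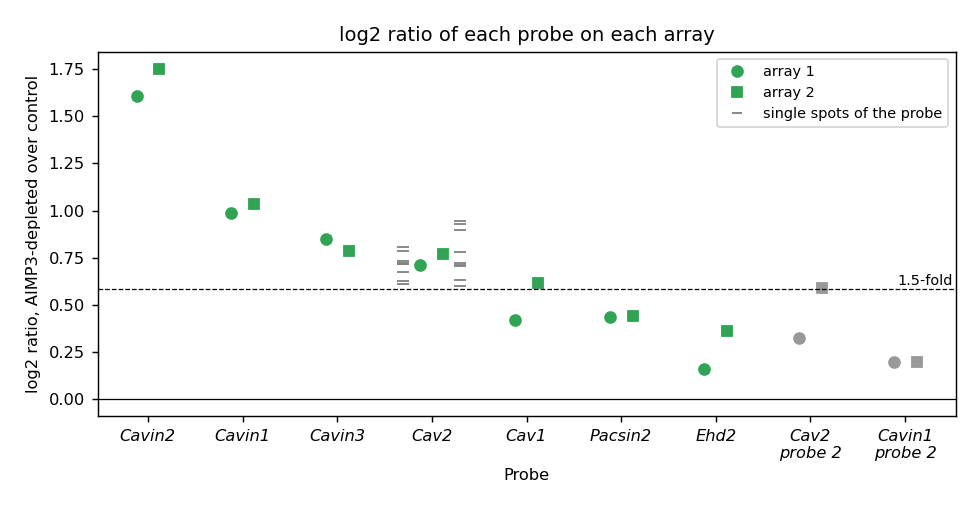
Ratios (log2, AIMP3-depleted to control) for every caveolar coat probe on array 1 (circles) and array 2 (squares), with grey symbols for the other probes of *Cav2* and *Cavin1* and short grey bars for the 9 spots used of the main *Cav2* probe. The dashed line marks 1.5-fold, which the main probes of *Cavin2*, *Cavin1*, *Cavin3* and *Cav2* exceed on both arrays and the *Cav1* probe and the other *Cav2* probe on array 2 only; the other *Cavin1* probe stays below it.

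The accessory proteins were both under 1.5-fold. *Pacsin2* was bright and repeatable, with 14518 and 14412 in the control pool and 19645 and 19603 in depleted cells. Its log2 ratio was 0.44 on both arrays (SD 0.0053, n = 2), a 1.36-fold difference. *Ehd2* gave 242 and 276 in the control pool and 271 and 355 in depleted cells. The lower depleted value lay below the higher control value, so the channels overlapped across arrays. The log2 ratio of *Ehd2* was 0.16 on array 1 and 0.36 on array 2 (mean 0.26 ± 0.14, SD, n = 2).

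In the order of the log2 ratios, *Cavin2* stood 0.67 above *Cavin1* and *Cavin1* stood 0.19 above *Cavin3*, gaps of 6.57 and 4.38 times the larger SD of the pair. *Cavin3* and *Cav2* differed by 0.077, 1.75 times the larger SD. *Cav1*, known only as a bound, has no fixed place in this order. *Ehd2* was 0.18 below *Pacsin2*, 1.27 times the SD of *Ehd2*. These SDs hold only the spread between 2 arrays, so a dye effect that differs between probes is left out of the gaps. With *Cav1* left out, *Cavin2* and *Cavin1* kept the first and second place and *Ehd2* the last under every background correction, normalization, filter, probe rule and left-out array that was tried. *Cavin3* and *Cav2* changed places with each other.

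The same control pool was hybridized to both arrays. The change of a member in that channel therefore reflects labelling, hybridization, scanning and normalization, and the normalization draws on both channels. From array 1 to array 2 the control signal moved by -0.03 on the log2 scale for *Cavin2*, by -0.01 for *Cavin1*, *Cav2* and *Pacsin2*, by 0.08 for *Cav1*, by 0.10 for *Cavin3* and by 0.19 for *Ehd2*. In the depleted channel the moves were 0.11 for *Cavin2*, 0.04 for *Cavin1* and *Cavin3*, 0.05 for *Cav2*, 0.00 for *Pacsin2*, 0.28 for *Cav1* and 0.39 for *Ehd2*. The dim single-spot members *Cav1* and *Ehd2* moved most in the depleted channel.

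**Figure D3:**
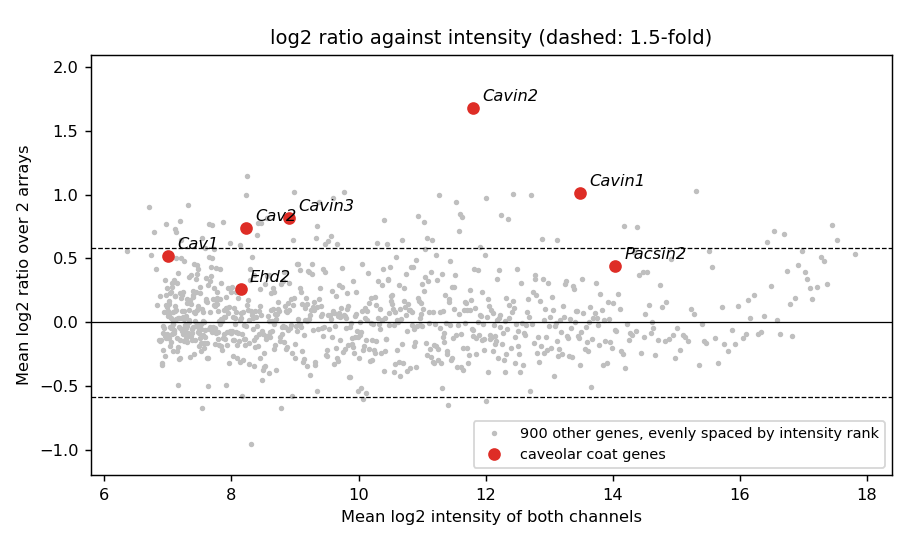
Mean log2 ratio over both arrays against the mean log2 intensity of both channels for the 7 caveolar coat genes (red) and for other tested genes drawn at even steps of intensity rank (grey), with dashed lines at 1.5-fold. *Cav1*, *Ehd2*, *Cav2* and *Cavin3* lie in the dim range, *Cavin2*, *Cavin1* and *Pacsin2* in the bright range, and all 7 lie above 0.

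The size of the ratios moved with how the values were made. When the scanner's own processed signals were used instead, which differ in background correction, dye normalization and the lack of an offset, the log2 ratio went from 0.52 to 0.93 for *Cav1*, from 0.74 to 0.99 for *Cav2* and from 0.26 to 0.38 for *Ehd2*. *Cavin2* stayed at 1.68 and *Cavin1* reached 1.03. In the authors' deposited value table *Cav1* was at 0.97 and *Cav2* at 1.02. With median centring in place of loess *Pacsin2* rose to 0.74, but the median of all genes rose as well, from 0.02 to 0.18, and relative to that median *Pacsin2* was at 0.56. Relative to the median of all genes the log2 ratio of *Cavin2* ranged from 1.59 to 1.74 over the main processing and the 9 other settings drawn, that of *Cavin3* from 0.77 to 0.94 and that of *Cav1*, which the strictest filter removed, from 0.28 to 0.96. *Cavin1* stayed at 0.97 or more.

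**Figure D4:**
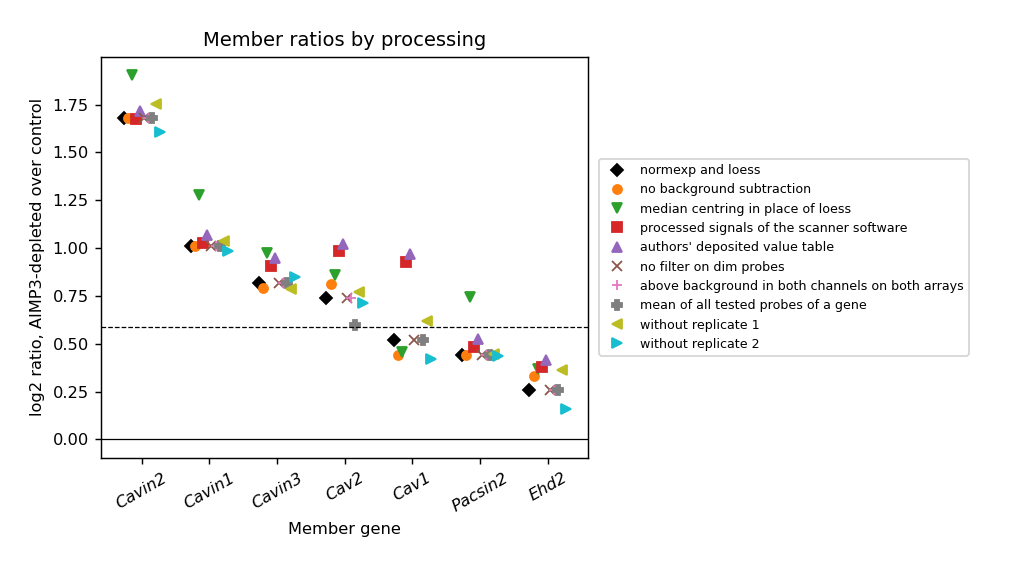
The log2 ratio of each caveolar coat gene under the main processing (black diamonds) and under 9 other settings, with a dashed line at 1.5-fold. *Cavin2*, *Cavin1*, *Cavin3* and *Cav2* stay above the line under every setting drawn, *Ehd2* stays below it, *Pacsin2* crosses it with median centring and *Cav1* with 3 settings; *Cav1* has no value where both channels had to be well above background.

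The genes whose ratios on both arrays were nearest to those of *Cavin2*, by Euclidean distance over the 2 arrays among 14292 named genes well above background in every channel, were *Lgals3* (1.70 and 1.78), *Anxa1* (1.72 and 1.79) and *Phlda1* (distance 0.12). Values in brackets are log2 ratios on arrays 1 and 2 unless named as a distance, and 2 values per gene define only a size.

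Close relatives of the members were on the arrays as well. *Cavin4* and *Cav3* build the coat in muscle. *Cavin4* was well above background and had a log2 ratio of 0.03 on array 1 and 0.00 on array 2 (adjusted p = 0.822 by limma), and *Cav3* was not above background in enough channels to be tested. Where counts at an unadjusted p under 0.05 at any fold are given below, the background over all tested genes was 33.5% positive and 27% negative by limma, and 14.1% positive and 10.4% negative by the methods' t-test. Of 5 other EHD and PACSIN genes, 0 passed the threshold by limma, although 3 had a positive ratio with an unadjusted p under 0.05 (2 by the methods' t-test). The highest was *Ehd1*, an ATPase of endocytic recycling, at 0.55 (0.48 and 0.62, adjusted p = 0.000353 by limma), just under 1.5-fold and above the mean ratios of *Pacsin2* and *Ehd2*. *Pacsin1*, the neuronal form, was at 0.00, with another probe at -0.30.

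Among 11 genes of the neck of caveolae and of their regulation, 9 were measured and 0 passed the threshold by limma. At an unadjusted p under 0.05, 7 were positive and 1 was negative, and by the methods' t-test 2 were positive and 0 negative. *Flna*, which encodes the actin crosslinker that ties caveolin-1 to stress fibres, was at 0.39. *Dnm2*, the dynamin that cuts necks of endocytic pits, was at 0.20. *Src*, the kinase that phosphorylates caveolin-1, was at 0.13, with a control signal well above background on only 1 of the 2 arrays. The flotillins, which mark a membrane domain apart from caveolae, were at 0.47 for *Flot2* and 0.16 for *Flot1*, both under the threshold.

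The clathrin and AP2 coat, the other large coat of the plasma membrane, had 18 genes, all measured. Of these, 4 were raised, 0 were lowered and the median log2 ratio was 0.23, against 0.02 for all genes. At an unadjusted p under 0.05 by limma, 13 had a positive and 3 a negative ratio (6 and 1 by the methods' t-test). *Cltb*, a clathrin light chain, was at 0.95 (0.91 and 0.99, adjusted p = 5.19e-05 by limma). *Dab2*, a cargo adaptor that is also a marker of primitive endoderm, was at 0.78 (0.69 and 0.86), and did not pass by the methods' t-test. *Itsn1*, a scaffold of endocytosis, was at 0.64 and *Ap2m1*, the medium chain of AP2, at 0.63. Other probes of *Itsn1* reached down to -0.20 and those of *Ap2m1* down to 0.33, and with the mean of all probes *Itsn1* was at 0.06 and *Ap2m1* at 0.49, under the threshold. Without replicate 1 *Ap2m1* was at 0.58, also under it, as was *Itsn1* at 0.57 with the processed signals. The clathrin heavy chain *Cltc* was at 0.20, and *Fcho2*, which starts clathrin pits, was lowest at -0.35.

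Receptors and cargo known from caveolae were measured for all 15 genes listed. Raised were 3, and 0 were lowered past 1.5-fold, and at an unadjusted p under 0.05 by limma 8 had a positive and 4 a negative ratio (3 and 1 by the methods' t-test). *Egfr*, the receptor of epidermal growth factor, was at 1.00 (SD 0.016, adjusted p = 4.33e-05 by limma). *Tgfbr2*, the type II receptor of TGF-β, was at 0.91 on both arrays (adjusted p = 5.02e-05 by limma). *Pdgfrb*, a receptor of platelet-derived growth factor and a fibroblast marker, was at 0.62 (0.68 and 0.56), and did not pass without replicate 1 (0.56) or by the methods' t-test. Dimmer probes of *Egfr* and *Tgfbr2* gave 0.32 and 0.34. The insulin receptor *Insr* was lowest at -0.53 (-0.40 and -0.65), and another of its probes gave 0.02. *Plvap*, which forms the diaphragm of endothelial caveolae, was at -0.38, with another probe at 0.0037, and *Nos3*, the endothelial nitric oxide synthase held by caveolin-1, at -0.23, with another probe at -0.43. *Kdr*, a receptor of VEGF, was at -0.15, and another of its probes gave 1.06. Of 10 genes that supply cholesterol, phosphatidylserine or phosphoinositides to the membrane, 9 were measured, and 0 passed the threshold by limma. Of these, 4 had a positive and 1 a negative ratio at an unadjusted p under 0.05 (3 and 0 by the methods' t-test). Highest were *Pip5k1a* (0.54), a phosphoinositide kinase, and the cholesterol exporter *Abca1* (0.47). Over all of these caveola-linked genes 7 of 59 measured (11.9%) were raised, beside 5.52% of all tested genes, and 0 were lowered, beside 0.791%.

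**Figure D5:**
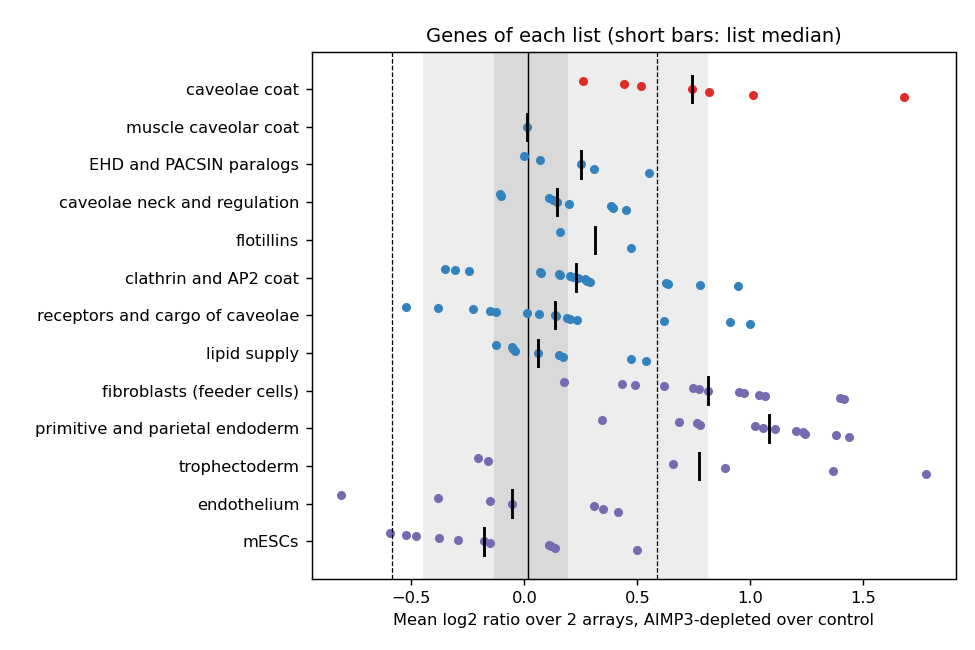
Mean log2 ratio of each measured gene in the caveolar coat (red), in lists of linked genes (blue) and in lists of cell type markers (purple), with a short bar for each list's median. The grey bands run from the 25th to the 75th and from the 2.5th to the 97.5th percentile of all tested genes around their median (solid line) and dashed lines mark 1.5-fold. The coat's median was 0.74. Its genes were chosen with these ratios in view, so nothing is read from its place beside the other lists.

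Most measured markers of fibroblasts, endoderm and trophectoderm were raised together with the caveolar coat, and most of those of endothelium and mESCs were not. Of 15 fibroblast markers 13 were measured, 10 were raised and 0 lowered by limma (0 negative at an unadjusted p under 0.05, and 0 by the methods' t-test), and the median was 0.81, from 0.17 for *Thy1* to 1.42 for *Vim*. Their summed signal rose from between 35527 and 36189 in the control pool to between 75818 and 78314 in depleted cells. All 13 were well above background in the control pool, and *Fap* and *Lum* were not measured. Primitive and parietal endoderm had 11 of 12 raised, from 0.34 for *Lamc1* to 1.44 for *Sox17*, with a median of 1.08 and a summed signal of 220361 to 226120 in the control pool against 436593 to 442257 in depleted cells. Of 6 measured trophectoderm markers 4 were raised, up to 1.78 for *Krt18*, and the other 2 were negative at an unadjusted p under 0.05 by limma, *Tfap2c* being lowest at -0.21. Endothelial markers, from a cell type rich in caveolae, had a median of -0.06 over 7 measured genes, with 0 raised by limma (3 positive and 3 negative at an unadjusted p under 0.05, and 0 raised by the methods' t-test) and *Cldn5* lowered to -0.81; *Tie1* was highest at 0.42, and *Emcn* was not measured. *Tie1* was at 0.68 with the processed signals and 0.72 in the authors' values, without passing the test there, and the other probe of *Kdr*, given above, was higher than *Tie1*. Markers of mESCs ran from -0.59 for *Tdgf1*, the only one that passed the threshold, to 0.50 for *Dppa5a*, with a median of -0.18. At an unadjusted p under 0.05, 3 were positive and 7 negative by limma (2 and 1 by the methods' t-test). Their summed signal was 278129 to 280440 in the control pool and 303556 to 311462 in depleted cells. Sums are weighted to bright probes, here that of *Dppa5a*. The trophectoderm sum also rose (control 65008 and 66886, depleted 185315 and 196754). The endothelial sum fell (control 9082 and 9420, depleted 8080 and 8221). *Tdgf1* was under the threshold with median centring (-0.20), the processed signals (-0.55), the authors' values (-0.51) and without replicate 2 (-0.55), and by the methods' t-test. *Pou5f1* was past 1.5-fold on array 1 alone, at -0.64, against -0.32 on array 2. *Dppa5a* rose to 1.03 with median centring, the only mESC marker raised there, as did *Lamc1* of the endoderm list to 0.74. The labels describe feeder layers of mouse embryonic fibroblasts as the general culture, and the methods describe conditioned medium for cells given drugs. The part of fibroblasts, endoderm or trophectoderm in the ratios of the caveolar coat was not tested.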

How the data were processed

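Mouse gene expression arrays (Agilent, 2 colours) were made from AIMP3-depleted mESCs (Cy5, n = 2) and 1 pool of control RNA (Cy3). Per the file headers, the deposited intensity values and log10 ratios of each spot were made by Feature Extraction, whose processed signals are background-subtracted and dye-normalized. The submitters' file headers give version 11.5.1.1, and the methods another. The value table deposited by the authors gives log2 ratios from GeneSpring, equal to the scanner's processed ratio plus 0.040 and 0.039 within 0.01 for 99.8% of probes on each array. Its columns had medians of 0.0909 and 0.111, and all columns were used. Direction came from the dyes in the labels.

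Median signals and local backgrounds were corrected with limma's normexp (offset 50), control spots were given no weight, and arrays were normalized by loess. Spots flagged as outliers (215 and 227) were dropped before the spots of each probe were averaged. Kept were 33012 of 55681 probes, those well above background on both arrays in 1 channel or more, and the brightest probe stood for a gene. Names came from RefSeq accessions (GRCm38.p6) for 31014 spots, and 14974 of 24022 tested genes had a RefSeq symbol. Levels in a channel are after Aquantile scaling between arrays, and are not compared between probes. Ratios were tested against 0 with lmFit and eBayes (1 residual and 5.25 prior degrees of freedom). Replicates may share their source, so p-values measure the spread between these 2 samples only. Both arrays lay on 1 slide. The test was first tested on simulated data.

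Members and lists were chosen with earlier results of these data known. Named were all members, linked genes past the threshold (others as examples), the extremes of each marker list, *Pou5f1* and the 3 nearest genes to *Cavin2*. The nearest to *Cav1* are not given, since its ratio is a bound. *Dab2*, *Kdr*, *Pdgfrb* and *Plvap* are each in 2 lists. Promoter motifs were chosen after the ratios were seen. Alternatives were other background corrections, normalizations, filters, probe rules, thresholds and tests, and each array left out. The tools were limma 3.58.1 and jsonlite 2.0.0 in R 4.3.3, with tables handled by the package data.table, version 1.17.8.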

Additional observations from a re-analysis of the deposited data

How the results depend on the processing

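Of the 7 caveolar coat genes 4 were over 1.5-fold, and 4 or 5 were under the 9 other settings tried, the fifth being *Pacsin2* with median centring and *Cav1* with the processed signals, with the authors' table or without replicate 1. No member changed direction under these settings. With median centring 2823 genes were raised and 65 lowered, 97.7% of calls being rises in place of 87.5%, and 15 caveola-linked genes were raised and 1 marker gene lowered. With the processed signals 1942 were raised and 771 lowered (71.6% rises), with 1 linked and 1 marker gene lowered, and with the authors' values 2130 were raised and 617 lowered (77.5% rises), with 1 marker gene lowered. The methods' t-test called 864 raised and 128 lowered genes, 0 after Benjamini-Hochberg adjustment, with 1 marker gene lowered. At 2-fold 281 genes were raised and 17 lowered, with 0 linked genes and 14 marker genes raised and 0 marker genes lowered. At an adjusted p under 0.05 at any fold by limma 7340 were raised and 5692 lowered, among them 34 and 7 linked genes, with 12 marker genes lowered. Without replicate 1 or 2, with no test, between 0 and 1 linked genes were lowered. *Tfap2c* turned to 0.047 with median centring, against 0.18 for all genes. The cause of these differences was not tested. No paired analysis was possible because the control was 1 pool. The number of arrays and dim signals, such as those of *Cav1* and *Ehd2*, limit the precision.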
